A study of Mus musculus with 20 samples.

Results

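Germline stem cells (GSC) were set against embryonic stem cells (ESC) across all genes measured. The comparison took the 3 arrays titled as GSC and the 3 titled as ESC, chosen by title alone, out of 20 arrays of mouse cells. It covered 18193 genes, and each gene was read from 1 probe set, the set with the highest mean over the 20 arrays. GSC were grown from testes of OG2 mice, written B6;CBA-Tg[Pou5f1-EGFP]2Mnn/J, which carry green fluorescent protein under the promoter of Pou5f1 (Oct4). They were kept on mitomycin C-inactivated mouse embryonic fibroblasts (MEF) in a StemPro-34 based medium with GDNF, basic FGF, EGF, leukemia inhibitory factor (LIF) and beta-estradiol, and the labels give no age for the mice. ESC were the RW4 line, an established mouse line, kept on MEF feeder cells with LIF under conditions described as standard, and no strain is named for them. MEF themselves were measured on 3 further arrays of the series and are used below to show which genes the feeder cells express. Like all 20 arrays, they also entered the choice of probe set and the fit behind each SE and p-value. Cell type, culture medium and the source of the cells, with the OG2 transgene named for GSC alone, differed between GSC and ESC and cannot be told apart. The labels do not say whether the arrays of a group came from separate cultures, so the p-values rest on the spread among the arrays alone, which may be technical.

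Spermatogonial stem cells renew themselves in the testis and give rise to sperm, and their culture depends on GDNF, a growth factor that Sertoli cells secrete and that signals through the receptor Ret and its partner Gfra1. They belong to the germ line, which protects its genome with piRNAs, small RNAs that silence transposons, and which alone enters meiosis. Embryonic stem cells come from the inner cell mass of the blastocyst, are pluripotent, and are held in that state by Pou5f1, Sox2 and Nanog together with LIF signalling.

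Levels are log2 intensities from RMA, so a difference of 1 is a 2-fold difference, and values are given as mean ± SD over 3 arrays or as the 3 arrays themselves. Differences are GSC minus ESC on this log2 scale with limma's standard error (SE). A gene was called when its Benjamini-Hochberg adjusted p over all 18193 genes was under 0.05 and the difference was at least 2-fold, and "rose" and "fell" are used of called genes only. The median of all deposited values was 4.98. A level near it or under it may be background, which leaves the size of a difference against it uncertain. A level under 6 is called dim below. Intensities of different genes come from different probes and are not compared with each other.

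The arrays separated by cell type. GSC arrays correlated with each other at r of 0.988 to 0.991 across probe sets, ESC arrays at 0.993 to 0.995, and a GSC with an ESC array at 0.901 to 0.91. All 7 markers listed for GSC had a mean over 6 in GSC and 0 of 7 did in ESC. All 7 markers listed for ESC did so in ESC, against 3 of 7 in GSC. These markers are a selection and include Dazl, Tex101 and Tet1, which are among the largest rises and falls given below. Their split is therefore not an independent check of cell identity. Some genes of the 2 cell types outside the selection did not split at 6. Pou5f1, Sox2, Sall4 and Lin28a had means over 6 in both groups, and so did Etv5, Itga6 and Kit. The 3' minus 5' difference of the actin control probe sets, a sign of RNA integrity, was 1.25 on GSC array 1, 0.51 and 0.49 on the other GSC arrays, and 0.27 to 0.51 in ESC. Of 8 fibroblast markers, 7 had a mean over 6 in GSC and 1 in ESC. In ESC 5 of the 8 means were under the median of all deposited values, against 1 in GSC. Their summed linear intensity was 2272 to 3064 in GSC, 2643 to 3052 in ESC and 31386 to 32523 in MEF. The ESC sum rests mostly on the 1 marker over 6, with a mean of 11.36. Similar sums therefore do not show similar levels of the other markers. Markers of Sertoli cells, Leydig cells and spermatids had 1, 0 and 1 members over 6 in GSC and the same numbers in ESC. In such bulk samples, fewer cells of a type and less RNA per cell cannot be told apart.

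GSC and ESC differed in the level of 4241 genes, 23.3% of the 18193 tested. Of these, 2392 rose in GSC, 13.1% of all genes, and 1849 fell, 10.2%. These shares are the background for the counts of each gene list below. The GSC and ESC arrays did not overlap at 57.4% of genes. The median difference over all genes was -0.0012. Differences over 16-fold were reached by 91 rises between 16-fold and 64-fold and 26 above, and by 105 and 14 falls. At 8081 genes both groups were dim. Among the 15 largest rises were the germ cell genes Nxf2, Tktl1, Slc25a31, Tex101, Taf7l, Dazl, Tex11 and Sycp2, with differences from 6.70 to 7.97. Among the 15 largest falls were the embryonic stem cell genes Tdgf1, L1td1, Nanog, Nr0b1, Tet1 and Fgf4, with differences from -6.09 to -8.25. The largest rise of all was that of Lyz1, which encodes a lysozyme of macrophages and Paneth cells, at 12.14, 12.12 and 12.16 in GSC, against 4.28, 3.21 and 3.46 in ESC. Its SE of 0.70, which pools the spread within every group of the 20 arrays, was the widest among these largest rises and falls. Its MEF mean was 9.19. Lyz1 was not called, at 0.20, when probe sets with names ending in x_at, s_at or a_at were left out. Sets with these endings are called sets of shared suffix below, whether they match several genes or several transcripts of 1 gene.

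**Figure D1:**
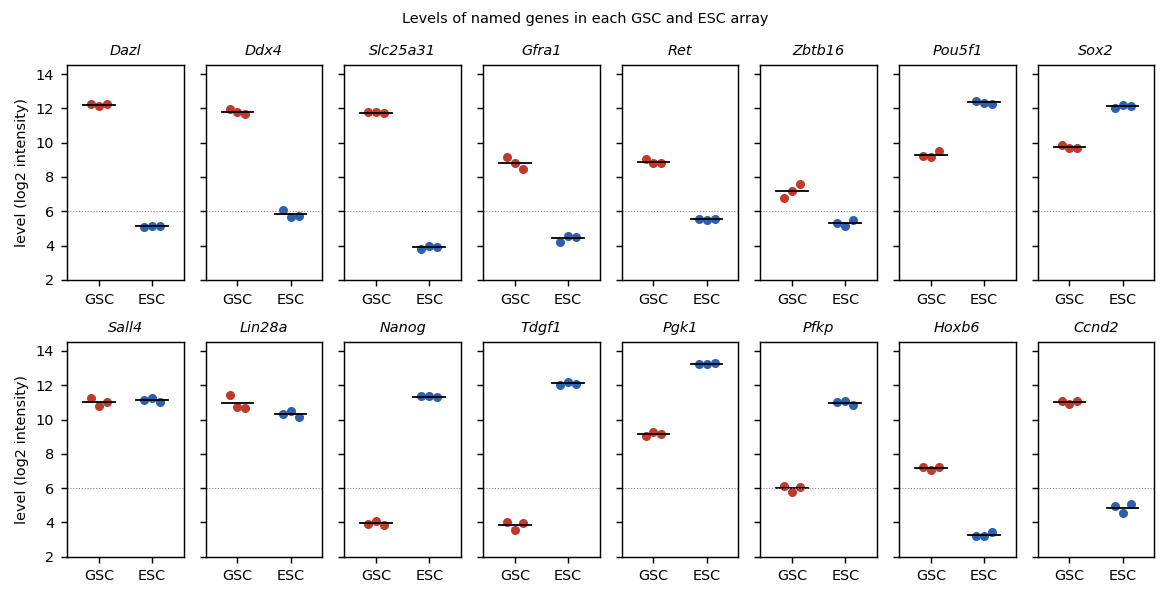
Levels (log2 intensity) of 16 genes on each of the 3 GSC and 3 ESC arrays, with the group mean as a bar and a dotted line at 6. Dazl, Ddx4 and Slc25a31 sit high in GSC and near or under 6 in ESC, Nanog and Tdgf1 the other way round, and Sall4 and Lin28a are high in both groups.

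Genes of the piRNA pathway were higher in GSC. Of 21 genes measured, 19 rose and 0 fell, with a median difference of 4.65. Piwil2, the Argonaute-like protein that binds piRNAs in prospermatogonia and spermatogonia, had levels of 11.63, 11.29 and 11.23 in GSC, against 4.98, 5.24 and 4.86 in ESC. The closest GSC and ESC arrays were 5.99 apart. Mael, a protein of the nuage granules where piRNAs are made, had 11.69, 11.50 and 11.64 in GSC, against 5.52, 5.21 and 5.37 in ESC. Mov10l1, the helicase needed for piRNA processing, differed by 6.24 ± 0.10 (SE, adjusted p by limma 2.45e-20), and Tdrd1, Tdrd5 and Asz1, scaffold proteins of the same granules, by 4.64, 4.65 and 4.68. Piwil4, the Piwi protein of fetal male germ cells, rose by 5.23 from a dim level in ESC. Tdrd12 and Kif17 were not called, at 0.73 and 0.65.

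RNA-binding and germ granule proteins showed the same direction, with 17 of 23 up and 2 down, at a median of 2.78. Dazl, which binds and activates germ cell messenger RNAs, stood at 12.25, 12.13 and 12.25 in GSC, against 5.06, 5.15 and 5.16 in ESC. Ddx4, the mouse vasa helicase, stood at 11.95, 11.79 and 11.68 in GSC, against 6.09, 5.65 and 5.75 in ESC. The closest GSC and ESC arrays were 6.98 apart for Dazl and 5.59 for Ddx4, and the fold difference of Dazl was 136. Nxf2 and Nxf3, testis members of the mRNA export factor family, rose by 7.97 and 2.59. Dnd1, which protects germ cell messages, and Tex14, a protein of the bridges between germ cells, rose by 3.29 and 2.78 and were over 7 in ESC. The exceptions were Patl2, an oocyte translation factor, at 7.01 ± 0.27 in GSC and 11.07 ± 0.083 in ESC, and Ybx3, a cold-shock protein that binds messenger RNA, at 9.68 ± 0.089 in GSC and 11.60 ± 0.062 in ESC.

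The first 300 bases around the start of a gene were searched for short motifs, because the palindrome CACGTG, the E-box bound by Myc and Max and by relatives of theirs, has been tied to repression of germ cell genes in mouse ESC. The promoters are those of RefSeq for GRCm38.p6, from 250 bases before to 50 after the start, and 14452 of the tested genes had at least 1. Where a gene had several promoters (2661 genes), only the first listed was searched. CACGTG, which reads the same on both strands, was found in 6 of 18 promoters of piRNA genes (33.3%), 7 of 20 of the germ cell RNA genes (35%) and 5 of 23 of the meiosis genes (21.7%). It was found in 10.5% of promoters of genes that rose, 10.6% of those that fell and 9.02% of all tested. It was found in 1 of 16 promoters of pluripotency factors and in 7 of 30 of the glycolysis genes (23.3%), a list with more falls than rises in GSC, so it was not limited to germ cell lists. A match is a description of these letters and not evidence that a factor binds there. Among the other motifs searched, GGCGGGA was found in 35% of promoters of germ cell RNA genes. Its shares were 26.1% in meiosis genes, 16.7% in piRNA genes and 17.2% in all tested. It was found in 36.7% of promoters of glycolysis genes, so it was not limited to germ cell lists either. Its shares were 21.9% in genes that rose and 18.2% in those that fell. The 4 germ cell promoters below hold 1 match of CACGTG each, in capitals, and 2 promoters of genes that fell are shown beside them and hold none. These are picked examples and do not represent the shares above, since most promoters of the germ cell lists hold no match. Slc25a31 lies at chr3:40708621-40708920 on the plus strand, Mael at chr1:166238695-166238994, Ddx4 at chr13:112652261-112652560 and Taf7l at chrX:134476441-134476740 on the minus strand. Nanog lies at chr6:122707239-122707538 on the plus strand and Tdgf1 at chr9:110946109-110946408 on the minus strand. The motif began 93, 223, 29 and 49 bases before the start in Slc25a31, Mael, Ddx4 and Taf7l. Those promoters held 22, 24, 38 and 17 CpG dinucleotides, and the Nanog and Tdgf1 promoters held 4 and 7. The median was 23 in promoters of genes that rose, 18 in those that fell and 17 in all.
Slc25a31: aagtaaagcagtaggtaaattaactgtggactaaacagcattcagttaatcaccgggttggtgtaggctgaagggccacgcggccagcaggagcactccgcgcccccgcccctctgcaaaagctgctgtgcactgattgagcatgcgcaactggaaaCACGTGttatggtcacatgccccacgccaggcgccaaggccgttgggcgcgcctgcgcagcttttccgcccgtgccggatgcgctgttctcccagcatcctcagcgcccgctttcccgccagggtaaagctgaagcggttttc
Mael: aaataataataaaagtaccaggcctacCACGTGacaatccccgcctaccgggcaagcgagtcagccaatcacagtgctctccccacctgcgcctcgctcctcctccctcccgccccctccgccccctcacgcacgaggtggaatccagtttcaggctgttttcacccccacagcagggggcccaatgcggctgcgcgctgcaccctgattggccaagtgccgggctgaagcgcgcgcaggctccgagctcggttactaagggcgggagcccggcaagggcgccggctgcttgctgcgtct
Ddx4: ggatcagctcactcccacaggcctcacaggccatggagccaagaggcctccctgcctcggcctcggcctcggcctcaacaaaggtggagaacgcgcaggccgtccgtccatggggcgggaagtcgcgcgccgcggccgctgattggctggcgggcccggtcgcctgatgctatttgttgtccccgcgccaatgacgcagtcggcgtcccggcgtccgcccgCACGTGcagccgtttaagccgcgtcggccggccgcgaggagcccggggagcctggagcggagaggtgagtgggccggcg
Taf7l: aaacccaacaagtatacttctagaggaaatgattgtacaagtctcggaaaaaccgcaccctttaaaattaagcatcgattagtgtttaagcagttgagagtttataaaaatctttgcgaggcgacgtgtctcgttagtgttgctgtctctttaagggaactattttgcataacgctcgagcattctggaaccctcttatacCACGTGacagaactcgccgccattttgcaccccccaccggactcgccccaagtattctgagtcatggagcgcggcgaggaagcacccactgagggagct
Nanog: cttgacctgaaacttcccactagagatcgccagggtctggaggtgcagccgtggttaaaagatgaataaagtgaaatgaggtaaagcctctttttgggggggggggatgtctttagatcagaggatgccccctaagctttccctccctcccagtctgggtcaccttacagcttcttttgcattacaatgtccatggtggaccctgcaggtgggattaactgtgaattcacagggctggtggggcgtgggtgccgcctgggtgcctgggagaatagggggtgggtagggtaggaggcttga
Tdgf1: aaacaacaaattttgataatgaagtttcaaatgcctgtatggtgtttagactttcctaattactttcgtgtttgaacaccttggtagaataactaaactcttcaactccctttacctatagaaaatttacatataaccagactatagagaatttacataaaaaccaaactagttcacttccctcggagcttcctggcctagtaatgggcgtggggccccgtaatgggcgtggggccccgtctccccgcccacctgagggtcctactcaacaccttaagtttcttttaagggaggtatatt

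Many genes of meiosis were higher in GSC. Of 27 genes of the synaptonemal complex, of meiotic cohesin and of recombination, 17 rose and 1 fell. Sycp1, the transverse filament of the synaptonemal complex, had 9.53, 9.35 and 9.31 in GSC, against 3.75, 4.08 and 3.64 in ESC. Smc1b and Stag3, cohesin subunits of meiosis, differed by 5.50 ± 0.29 and 3.96 ± 0.18 (SE). Tex11 and Tex12, which help to join the homologous chromosomes, rose by 6.85 and 5.85. Spo11, the enzyme that cuts DNA to start recombination, had 4.98, 5.29 and 5.24 in GSC, against 3.67, 3.40 and 3.67 in ESC, dim on every array although called. Prdm9, which marks the sites of those cuts, was not called at -0.24 and was dim in both groups. Majin, which tethers telomeres to the nuclear envelope, and Psmc3ip, a recombination cofactor, were not called either, at -0.10 and -0.07. Stra8, the factor that retinoic acid induces before meiosis, had 9.50, 9.56 and 9.56 in GSC, against 5.55, 5.65 and 6.04 in ESC. The mismatch repair gene Mlh3 was the single fall, at -1.05, and was not called without GSC array 3, at -0.95, which left 0 falls.

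Most genes of spermatids were not called, with 2 of 28 up and 1 down, and 24 of them were dim in both groups. Acrv1 of the acrosome had 3.17 ± 0.026 in GSC and 3.24 ± 0.045 in ESC, the protein kinase Tssk1 and the transition protein gene Tnp1 were not called at -0.26 and 0.29, and Prm1, a protamine, was 6.58 ± 0.27 in GSC and 6.56 ± 0.13 in ESC. The rises were Izumo1, the sperm protein that binds the egg, at 1.10, and the transcription factor Crem at 1.04. Neither call was firm. Izumo1 lay at 0.93 without GSC array 1 and 0.97 without ESC array 3, and Crem at 0.97 and 0.80 without GSC array 1 or 2 and at 0.99 without ESC array 2, and 1 gene of the list rose each time, which without GSC array 1 was neither of these. With array weights both lost their calls, at 0.94 and 1.00, and 0 of the list rose. In the mean of its probe sets Crem differed by 0.09 (adjusted p by limma 0.62). Odf2, which also serves the centrosomes of other cells, fell by 2.58.

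In 3 pairs of a testis copy and a copy used by other tissues, the copies changed in opposite directions. Slc25a31, the germ cell carrier that exchanges ADP for ATP across the mitochondrial membrane, had 11.77, 11.78 and 11.70 in GSC, against 3.83, 3.98 and 3.91 in ESC. Its partner Slc25a5 had 10.52, 10.84 and 10.90 in GSC, against 12.87, 12.79 and 12.82 in ESC. Both comparisons were free of overlap, while Slc25a4, the muscle and heart carrier, was not called at -0.75. Pdha2, the germ cell subunit of pyruvate dehydrogenase, rose by 4.32 and Pdha1, its partner on the X chromosome, fell by 1.88. Tktl1, a transketolase-like gene, rose by 7.89 and Tkt itself fell by 1.83. Taf7l and its partner Taf7 both rose, by 7.12 and 1.26, and Taf7 was not called in the mean of its probe sets, at 0.69. Across the lists, 8 of 19 testis copies rose and 1 fell, against 3 and 8 of 19 partners. Genes whose MEF level was 4-fold or more that of neural stem cells (NSC), another group of the series, are called MEF-enriched below. Without them, 1 partner rose. The sperm glycolysis genes Pgk2 and Gapdhs were not called at -0.41 and -0.55, and Actl7a and Actl7b, actin-like genes of sperm, stood at -0.11 and -0.07.

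On the X chromosome, 12 of 23 genes of germ cell families rose and 3 fell. Taf7l, a germ cell subunit of the TFIID complex, had 11.61, 11.45 and 11.27 in GSC, against 4.29, 4.35 and 4.34 in ESC. Usp26, Rhox13 and Magea5 rose by 4.22, 3.47 and 3.01 from dim levels in ESC. The Rhox cluster of reproductive homeobox genes was split. Rhox13 rose, while Rhox5 had 4.18, 4.46 and 4.97 in GSC, against 9.37, 9.43 and 9.37 in ESC, and Rhox6 and Rhox9 fell by 2.47 and 1.51. Mageb16 was high in both groups and not called, at 10.37 ± 0.15 in GSC and 10.54 ± 0.021 in ESC.

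**Figure D2:**
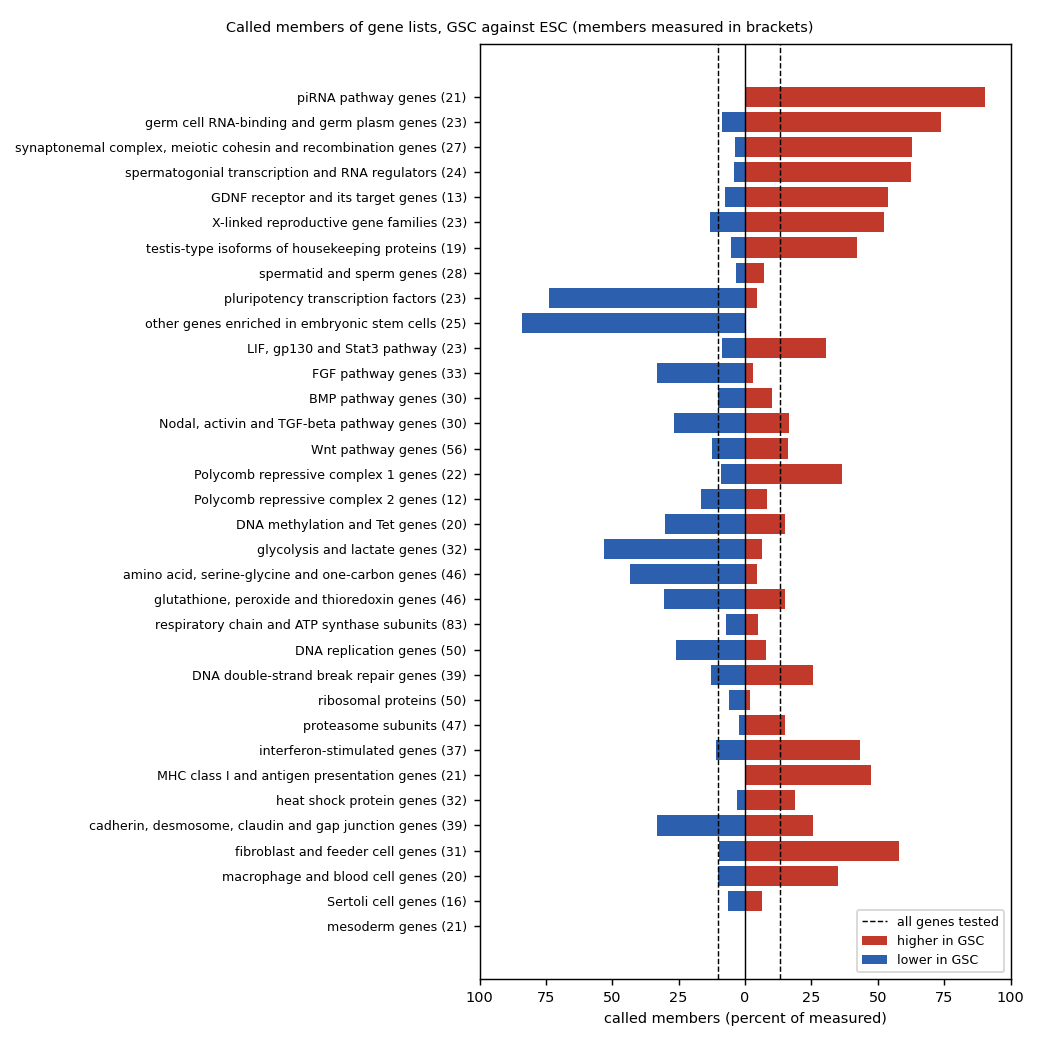
Share of the measured members of 34 gene lists that were called higher (right) or lower (left) in GSC than in ESC, with the number of members measured in brackets. The dashed lines are the shares over all genes tested, 13.1% higher and 10.2% lower. The piRNA list has no bar to the left and the list of other ESC genes none to the right.

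The receptor of GDNF and several of its targets rose in GSC. Gfra1, the binding receptor of GDNF, had 9.16, 8.84 and 8.48 in GSC, against 4.22, 4.55 and 4.49 in ESC. Ret, its signalling partner, had 9.02, 8.83 and 8.81 in GSC, against 5.56, 5.51 and 5.56 in ESC. All GSC values lay above all ESC values, by at least 3.93 for Gfra1 and 3.24 for Ret. Of the 13 GDNF receptor and target genes 7 rose and 1 fell. Egr2 and Pou3f1, transcription factors that GDNF induces, rose by 4.12 and 1.68. Bcl6b, a GDNF target, and Id4, a marker of the stem cell pool, were not called at 0.92 and 0.44. Without GSC array 3 or ESC array 2 Bcl6b was called, at 1.24 and 1.00. Etv5, a target of GDNF in spermatogonia and of FGF in ESC, had 8.32, 7.39 and 7.24 in GSC, against 9.79, 9.99 and 9.61 in ESC. It was lower in GSC on every array. Ccnd2, the D-type cyclin of spermatogonia, had 11.09, 10.89 and 11.09 in GSC, against 4.93, 4.58 and 5.05 in ESC, and its MEF mean was 12.20.

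Transcription factors of spermatogonia rose in 15 of 24 cases and fell in 1. Zbtb16 (PLZF), needed for stem cell renewal in the testis, had 6.79, 7.16 and 7.61 in GSC, against 5.29, 5.11 and 5.48 in ESC. Dmrt1, the DM-domain factor of male germ cells, had 11.68, 11.21 and 11.46 in GSC, against 7.59, 7.74 and 7.42 in ESC. Sohlh1 and Sohlh2, which drive spermatogonial differentiation, rose by 3.42 and 4.00, and Neurog3, a marker of progenitors, by 3.96. Foxc2 and Glis3 rose by 4.36 and 4.69, with MEF means of 7.84 and 7.13. Pax7, a marker of rare stem cells, and Eomes were not called at 0.18 and 0.39. Kit, the receptor that marks differentiating spermatogonia, was not called, at 7.73, 7.38 and 7.46 in GSC, against 6.84, 6.80 and 6.56 in ESC. Its ligand Kitl, which MEF express at a mean of 10.29, was 4.18 ± 0.50 in GSC and 7.94 ± 0.16 in ESC.

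Retinoid genes moved in part. Crabp1 and Crabp2, which carry retinoic acid in the cell, rose by 3.75 and 2.89, with MEF means of 11.40 and 8.44, and Rbp4, the retinol carrier, by 3.31. In all 5 of 21 rose and 1 fell (28.6% called, against 23.3% of all genes). None of the degrading enzymes or receptors listed was called, with Cyp26b1 at -0.05 and Stra6, the retinol transporter, at 0.05. With the MEF-enriched genes left out, the rises were 3.

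Signal transducers of LIF rose in GSC and a feedback inhibitor fell. Stat3, the factor through which LIF maintains ESC, had 11.17, 11.16 and 11.27 in GSC, against 8.81, 8.77 and 8.37 in ESC. Jak1 and Jak2, the kinases at the receptor, rose by 2.82 and 1.61, and Stat5a by 1.74. Socs2, a suppressor of cytokine signalling, had 6.41, 6.60 and 6.46 in GSC, against 10.67, 10.60 and 10.48 in ESC, and the kinase Pim3 fell by 2.37. The receptor chain Il6ra was not called at 0.00, and Il6st (gp130) and Lifr lay at 0.41 and -0.79 without a call. Of 23 genes 7 rose and 2 fell. Outside LIF, Igf1r rose by 3.76 and Erbb2 by 1.70. Egfr, the receptor for the EGF of the medium, was not called, at 6.94 ± 0.22 in GSC and 6.74 ± 0.30 in ESC.

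Genes of FGF signalling fell more often than they rose. Of 33, 1 rose and 11 fell, at a median of -0.35. Fgf4, the autocrine FGF of ESC, had 3.80, 3.99 and 3.84 in GSC, against 10.14, 10.02 and 9.74 in ESC. Spry4, an inhibitor that FGF signalling induces, had 5.89, 5.04 and 4.97 in GSC, against 9.42, 9.52 and 9.44 in ESC. Dusp4, a phosphatase of the same feedback, was 4.99 ± 0.19 in GSC and 8.98 ± 0.091 in ESC, and Spry2 fell by 2.38. Egr1, an immediate early target, was the single rise at 1.64, and without GSC array 2 there were 2. Fgf8, Fgf10 and Fgfr3 were not called, at -0.05, 0.04 and 0.02.

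Ligands and inhibitors of the Nodal pathway fell in GSC, and so did a few BMP genes. Id2, a helix-loop-helix inhibitor that BMP induces, had 4.36, 4.21 and 4.44 in GSC, against 10.28, 10.32 and 10.35 in ESC. Id1 had 6.70, 6.69 and 6.83 in GSC, against 9.78, 9.51 and 9.55 in ESC. The ligand Bmp4 was 5.48 ± 0.65 in GSC and 10.03 ± 0.084 in ESC. MEF means were 10.38, 10.61 and 8.83, all nearer to ESC. Of 30 BMP genes these 3 fell and 3 rose, a share of falls like the 10.2% over all genes. The signal transducer Smad5 was among the rises, at 1.56. With the MEF-enriched genes left out, 1 BMP gene fell. Of 30 Nodal, activin and TGF-beta genes, 8 fell and 5 rose. Tdgf1 (Cripto), the co-receptor of Nodal, had 4.03, 3.57 and 3.94 in GSC, against 12.04, 12.18 and 12.09 in ESC. Nodal itself was 5.18 ± 0.45 in GSC and 10.10 ± 0.13 in ESC, and its inhibitors Lefty1 and Lefty2 fell by 3.65 and 4.16. The largest rises were the TGF-beta receptor Tgfbr3 at 2.96 and the co-repressor Ski at 2.75. With the probe sets of each gene averaged, 2 of the list rose.

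Wnt, Notch and Hedgehog genes were called about as often as all genes (23.3%). Among 56 Wnt genes, 9 rose and 7 fell (28.6% called), and 31 were dim in both groups. The Frizzled receptors were split, with Fzd3 and Fzd2 up by 3.04 and 2.92 and Fzd5 and Fzd7 down by 4.46 and 3.10. Axin2, a general target of the pathway, had 7.79, 6.95 and 7.05 in GSC, against 5.86, 5.86 and 5.56 in ESC, with the GSC arrays all above the ESC arrays, but the mean of its probe sets differed by 0.76 and was not called. The repressor Tcf7l1 fell by 1.63, and Wls, which secretes Wnt proteins, by 2.29. Of the Notch and Hedgehog genes 2 of 33 rose and 5 fell (21.2% called). The Hedgehog effectors Gli2 and Gli1 and the receptor and target Ptch1 fell, with differences of -3.35, -3.17 and -2.46, while Gli3 rose by 1.46.

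Pluripotency factors fell in 17 of 23 cases, but their sizes differed widely. Pou5f1 was well above background in GSC, at 9.20, 9.15 and 9.53 in GSC, against 12.45, 12.34 and 12.27 in ESC. Sox2 was so as well, at 9.85, 9.69 and 9.66 in GSC, against 12.04, 12.17 and 12.15 in ESC. Nanog was under the median of all deposited values in GSC, at 3.88, 4.11 and 3.88 in GSC, against 11.36, 11.36 and 11.30 in ESC. The fold differences were 8.34 for Pou5f1, 5.23 for Sox2 and 167 for Nanog, all with GSC lower. Sall4, which both ESC and spermatogonia need, had 11.24, 10.78 and 11.03 in GSC, against 11.14, 11.23 and 11.02 in ESC and was not called. Mycn likewise had 9.64, 8.99 and 9.41 in GSC, against 9.38, 9.29 and 9.10 in ESC and was not called, whereas Myc fell by 3.41. Klf4 was not called at -0.77 ± 0.25 (SE), and the related Klf2 and Klf5 fell by 5.21 and 4.81. Nr0b1 (Dax1), an X-linked factor of the network, fell by 7.30, Zfp42 (Rex1) by 5.03 and Tfcp2l1 by 4.73. Stat3 was the single rise of the list.

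Other genes of embryonic stem cells fell in 21 of 25 cases and rose in 0, at a median of -3.00. L1td1, an RNA-binding protein, had 4.05, 4.24 and 4.77 in GSC, against 12.06, 12.03 and 11.98 in ESC. Eras, the Ras protein of ESC, was 4.29 ± 0.28 in GSC and 9.82 ± 0.11 in ESC, and Dppa2 fell by 5.00. The germ cell gene Dppa3 (Stella), also expressed in ESC, was not called at 8.47 ± 0.072 in GSC and 7.90 ± 0.052 in ESC. Lin28a, which blocks let-7 maturation, had 11.45, 10.72 and 10.64 in GSC, against 10.33, 10.49 and 10.17 in ESC, and Trim71 had 10.14 ± 0.16 in GSC and 9.87 ± 0.072 in ESC. Both were high in both groups. Markers of the later, primed state were lower as well, with Otx2 at -4.72 and Fgf5 at -1.52, and 6 of 18 down against 2 up.

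Tet1 and Tet2 and the methylation cofactor Dnmt3l fell in GSC. Tet1, which oxidises methylated cytosine, had 3.67, 4.09 and 3.57 in GSC, against 11.02, 11.07 and 11.10 in ESC. Tet2 was 5.50 ± 0.19 in GSC and 8.85 ± 0.13 in ESC. Dnmt3l, which acts in prospermatogonia and ESC, had 5.92, 6.23 and 5.99 in GSC, against 11.68, 11.59 and 11.54 in ESC. The methyltransferases themselves were not called, Dnmt3b at -0.97 ± 0.21 (and called at -1.04 without GSC array 2 and at -1.06 with the arrays centred on their medians) and Dnmt1 and Dnmt3a at 0.49 ± 0.10 and 0.70 ± 0.28 (SE). The readers of methylated DNA Zbtb33 (Kaiso) and Mbd2 rose by 2.54 and 1.92. Of 20 genes of DNA methylation and Tet enzymes 3 rose and 6 fell.

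Of the PRC1 genes, 8 of 22 rose and 2 fell. Bmi1, needed by adult stem cells, had 10.19, 10.00 and 9.91 in GSC, against 7.76, 7.80 and 7.58 in ESC. Cbx7, the main chromodomain subunit in ESC, had 8.04, 7.29 and 7.41 in GSC, against 8.77, 8.90 and 8.62 in ESC, and Cbx2 and Cbx8 rose by 2.53 and 2.91. Cbx7 lay at -0.59, without a call, in the mean of its probe sets. E2f6, which recruits a variant PRC1 to germ cell genes, rose by 2.86, and Max, a partner in the same complex, fell by 1.15. Scml2, a germ cell polycomb protein outside the list and among the 15 largest rises, had 11.41, 11.24 and 11.07 in GSC, against 4.14, 3.80 and 4.43 in ESC. Of 12 PRC2 genes 1 rose, Ezh1 by 1.38 (not called at 0.91 in the mean of its probe sets, nor at 0.31 without sets of shared suffix), and 2 fell, Ezh2 by 1.54 and Epop by 3.22. Without GSC array 2 or ESC array 3, 2 of the PRC2 genes rose.

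Among histone demethylases 5 of 20 rose and 4 fell (45.0% called, against 23.3% of all genes). Kdm4c had 5.45, 5.34 and 5.04 in GSC, against 9.60, 9.78 and 9.59 in ESC. Kdm5c and Kdm6a, both on the X chromosome, fell by 2.54 and 2.05, and their relative Kdm5d on the Y chromosome rose by 2.96 and was dim in both groups. Of the histone variants, Brdt, the testis bromodomain protein on that list, rose by 5.29, and H2ax and H2az1 fell by 2.14 and 1.87. Repressor genes around KRAB zinc fingers were divided, with Ehmt2 (G9a) up by 1.49 and Tasor and Morc1 down by 2.68 and 1.93.

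Genes of glycolysis fell in GSC, whose medium held added glucose per the labels, while the glucose in the ESC medium is not stated. Of 32 genes of glucose transport, glycolysis and lactate handling, 17 fell and 2 rose, at a median of -1.15. The falls ran along the pathway. Slc2a1, the main glucose transporter, had 9.52, 9.73 and 9.74 in GSC, against 12.51, 12.66 and 12.62 in ESC. Hk2, the first enzyme, was 8.37 ± 0.15 in GSC and 10.97 ± 0.02 in ESC. Pfkp, a phosphofructokinase, was 5.99 ± 0.21 in GSC and 10.98 ± 0.11 in ESC. Tpi1 and Pgk1 fell by 3.25 and 4.10, and the 3 GSC values of Pgk1 were 9.05, 9.25 and 9.14, against 13.24, 13.21 and 13.30 in ESC. The last step, Ldha, was 9.51 ± 0.26 in GSC and 12.30 ± 0.058 in ESC. Pdk3, a kinase that holds back pyruvate dehydrogenase, rose by 1.49. Hk1 rose by 1.00 and was not called without GSC array 1 or 3 or ESC array 3, at 0.87, 0.97 and 0.97, which left 1 rise. It was not called with quantile normalization either, at 0.86. Without sets of shared suffix, 11 of the list fell.

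**Figure D3:**
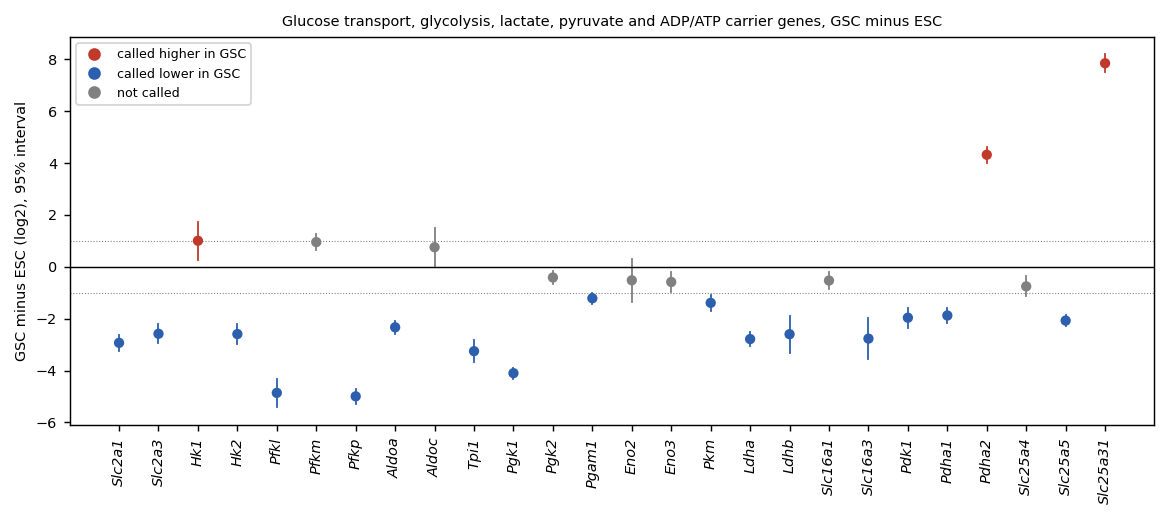
GSC minus ESC differences (log2, with 95% intervals) of genes in the order of the pathway from glucose uptake to pyruvate and the ADP/ATP carriers, coloured by call, with dotted lines at 2-fold. Most enzymes lie under -1, with Pfkp at -4.99 and Pgk1 at -4.10. Slc25a31 at 7.85 and Pdha2 at 4.32 lie far above their partners.

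Few genes of the respiratory chain were called. Of 83 subunits 4 rose and 6 fell, a smaller share than over all genes, at a median of -0.03. The largest rise was that of Cox7b2, a testis subunit of cytochrome oxidase, at 8.47, 8.13 and 8.22 in GSC, against 3.85, 3.75 and 4.05 in ESC. Ndufs5 rose by 2.02. Cox4i2 and Cox6a1 were not called, at 0.01 and 0.01.

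Amino acid enzymes and transporters were lower in GSC, with 20 of 46 down and 2 up. Bcat1, which transfers the amino group of branched-chain amino acids, had 3.86, 3.22 and 3.26 in GSC, against 10.31, 10.21 and 10.15 in ESC. Slc7a3, a carrier of arginine and lysine, had 4.91, 4.96 and 4.88 in GSC, against 10.70, 10.64 and 10.58 in ESC. Cth, which makes cysteine, was 5.04 ± 0.52 in GSC and 9.83 ± 0.04 in ESC, and Aass, which starts lysine breakdown, fell by 5.27. Gldc, which breaks down glycine, was 7.80 ± 0.08 in GSC and 10.59 ± 0.12 in ESC. The rises were Mtr (methionine synthase) at 3.31 and Phgdh, the first enzyme of serine synthesis, at 1.63.

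Antioxidant genes fell more often than they rose, 14 against 7 of 46 (45.7% called, against 23.3% of all genes). Txnip, which binds thioredoxin and holds back glucose uptake, had 12.11, 11.96 and 12.06 in GSC, against 4.93, 5.36 and 5.40 in ESC. It was over 11 on every GSC array. Gstm5 rose by 4.66, and Gsta4, Gstm2 and Nqo1 fell by 3.55, 3.55 and 2.73. The glutathione transferases are close relatives and their probe sets may share signal. In lipid synthesis 5 of 34 rose and 9 fell (41.2% called). Ebp of the late sterol pathway and the desaturase Scd1 fell by 3.23 and 3.04, Dhcr7, the last enzyme of that pathway, rose by 2.04, and Sqle and Hmgcs1 lay at 0.04 and 0.11.

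Several cell cycle genes of the G1 step differed. Ccnd2 rose by 6.17, as given above, and Ccnd1 had 8.64, 8.37 and 8.30 in GSC, against 7.07, 7.17 and 6.92 in ESC. Ccnd3 was not called at 0.59 ± 0.25 (SE). Ccne1, the cyclin that ESC keep high, had 6.68, 6.71 and 6.96 in GSC, against 9.54, 9.64 and 9.72 in ESC, and Cdk6 fell by 2.81. Rbl2, a brake on this step, fell by 1.94. The inhibitors Cdkn2a and Cdkn2b rose by 1.37 and 1.23. Of 40 genes 6 rose and 8 fell (35.0% called, against 23.3% of all genes). The MEF means of Ccnd2 and Ccnd1 were 12.20 and 11.00, above those of GSC.

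In the replication machinery 13 of 50 genes fell and 4 rose. Rrm2, the subunit of ribonucleotide reductase made in S phase, had 8.40, 8.86 and 8.36 in GSC, against 11.86, 11.94 and 12.01 in ESC. Gins2 and Orc5 fell by 2.41 and 1.67, whereas the helicase subunits Mcm4 and Mcm7 were not called at -0.05 and 0.16. Repair genes of double-strand breaks rose more often, 10 of 39 against 5 (38.5% called, against 23.3% of all genes). Atm, the kinase that senses the breaks, had 9.92, 9.63 and 9.58 in GSC, against 7.18, 7.41 and 7.35 in ESC. Trp53bp1 and Prkdc rose by 1.88 and 1.31, and Nbn, which binds the broken ends, was not called at 0.01. With the mean of each gene's probe sets in place of the brightest set, 6 of these repair genes rose. Among p53 and apoptosis genes Mcl1, a survival factor, fell by 2.39 and Casp2 rose by 1.59, and Bcl2 lay at -0.01.

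Junction genes changed in both directions in GSC, and some surface markers of both stem cell types were not called. Cdh1 (E-cadherin) had 4.31, 5.46 and 5.20 in GSC, against 10.89, 10.98 and 10.81 in ESC. The groups did not overlap and were at least 5.35 apart. Other junction genes fell, the desmosome genes Dsg2 and Dsp by 5.02 and 4.91, the gap junction gene Gja1 (connexin 43) by 4.43 and Cldn4 by 4.26. Of 39 junction genes 13 fell and 10 rose, 6 with the MEF-enriched genes left out. The rises included the cadherins Cdh11 and Cdh15 by 3.01 and 1.69, the tight junction genes Tjp1 and Ocln by 1.61 and 1.59, and the gap junction gene Gjb2 by 1.70, with MEF means above GSC for Cdh11 and Gjb2. Epcam, a surface marker of both cell types, had 9.26 ± 0.14 in GSC and 9.91 ± 0.12 in ESC and was not called. Cd9, another such marker, had 10.67 ± 0.12 in GSC and 10.86 ± 0.07 in ESC and was not called either. Itga6, the integrin used to enrich spermatogonia, had 9.25, 9.04 and 9.00 in GSC, against 10.14, 10.20 and 10.06 in ESC, and was not called without GSC array 3, at -0.99, or in the mean of its probe sets, at -0.94. Thy1, another such marker, had 6.64, 6.57 and 6.36 in GSC, against 4.48, 4.10 and 4.43 in ESC, with a MEF mean of 10.40. Mcam, a cell adhesion molecule, rose by 3.57, and Pecam1 and Prom1 fell by 3.33 and 3.20. Of 36 surface genes 7 rose and 8 fell (41.7% called, against 23.3% of all genes), and 4 rose with the mean of the probe sets.

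Genes of the response to interferon and of antigen presentation were higher in GSC. Of 37 interferon genes 16 rose and 4 fell, and 4 of the rises had a MEF mean at or above that of GSC. Oasl2, a relative of the oligoadenylate synthetases, had 9.76, 9.27 and 9.20 in GSC, against 3.26, 3.30 and 3.28 in ESC, and the MEF mean was 4.58. Gbp2, a guanylate-binding protein, had 9.69, 9.51 and 9.18 in GSC, against 3.19, 4.48 and 3.74 in ESC. Irf1, the factor that interferon gamma induces, had 10.89, 10.86 and 11.02 in GSC, against 7.70, 7.57 and 7.71 in ESC. Other well-known targets of interferon were not called. Mx1 and Irf9 lay at -0.02 and -0.02, and Ifit1 and Ifit3 at 0.68 and 0.42. Ifitm2 and Ifitm3, membrane proteins that are also high in ESC, fell by 3.71 and 2.00. With the MEF-enriched genes left out, 2 interferon genes fell.

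The machinery that loads peptides on MHC class I rose in 10 of 21 genes and fell in 0, and none of the rises had a MEF mean at or above GSC. Erap1, which trims peptides, had 9.24, 9.21 and 8.99 in GSC, against 4.47, 4.28 and 4.11 in ESC. Tapbp (tapasin) was 10.35 ± 0.16 in GSC and 6.80 ± 0.40 in ESC. The immunoproteasome subunits Psmb9, Psmb10 and Psmb8 rose by 3.08, 2.32 and 1.97, and Nlrc5, the activator of class I genes, by 2.15. Tap1 and the class II gene H2-Aa lay at 0.29 and 0.10. Of 47 proteasome genes 7 rose, these subunits included, and 1 fell (17.0% called, against 23.3% of all genes). Of 50 ribosomal protein genes 1 rose, Rpl39l, the germ cell copy of Rpl39, by 1.75, and 3 fell. Without GSC array 1, 2 of them rose, and without sets of shared suffix 8 fell.

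Some macrophage genes and many fibroblast genes were also higher in GSC. Of 20 macrophage and blood genes 7 rose, which were Lyz1, Lyz2, C1qb, Ctss, C1qa, C1qc and Tyrobp, with differences from 1.74 to 8.49. The lysosomal genes Laptm5 and Cd68 of the same list fell, with differences of -2.21 and -1.15, and Laptm5 was not called in the mean of its probe sets, at -0.62, or without sets of shared suffix, at -0.12. The defining markers Ptprc (CD45), Adgre1 (F4/80) and Csf1r were not called. Ptprc lay at 3.84 ± 0.10 in GSC and 3.27 ± 0.29 in ESC, Adgre1 at 5.36 ± 0.44 in GSC and 5.18 ± 0.17 in ESC, and Csf1r at 6.34 ± 0.27 in GSC and 6.01 ± 0.13 in ESC. The summed linear intensity of the 4 macrophage and blood markers was 204 to 228 in GSC, 124 to 153 in ESC and 288 to 328 in MEF. Of 31 fibroblast genes 18 rose and 3 fell, and all 18 rises had a MEF mean at or above that of GSC. Over all genes this held for 419 of the 2392 rises. Col3a1 had 9.04, 8.72 and 8.70 in GSC, against 3.74, 3.48 and 3.62 in ESC, and its MEF mean was 11.82. Ccn2 and Fn1, matrix genes that ESC cultures also express, fell by 2.82 and 1.35. With the MEF-enriched genes left out, 1 fibroblast gene and 4 macrophage genes rose. For the fibroblast list this drop was largely set by the filter, which takes out genes that are high in fibroblasts. The part that feeder cells or macrophages play in the other rises was not tested.

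Heat shock genes rose in 6 of 32 cases and fell in 1 (21.9% called, against 23.3% of all genes). Hspa4l, which is abundant in testis, had 10.10, 10.01 and 9.79 in GSC, against 5.33, 5.53 and 5.20 in ESC. Hspa1a and Hspa1b, near-identical inducible genes whose probes may share signal, rose by 1.85 and 3.18, with MEF means of 7.02 and 10.38. Hspb1 (Hsp27) had 7.83, 7.83 and 7.67 in GSC, against 13.27, 13.10 and 13.01 in ESC. The constitutive chaperones Hspa8 and Hspa5 lay at -0.02 and -0.03. With the MEF-enriched genes left out, 3 genes of this list rose.

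Hox genes rose in the Hoxb cluster and, with a single exception, in no other. In the Hoxb cluster 8 of 9 genes rose, at a median of 2.72, while 0 of 9 rose in Hoxa, 1 of 7 in Hoxc and 0 of 8 in Hoxd. No Hox gene fell. Dim in both groups were 6 of 9 Hoxa, 6 of 7 Hoxc and 8 of 8 Hoxd genes, and 4 of 9 in Hoxb. Most of the missing calls outside Hoxb were therefore at levels that may be background. At an unadjusted p under 0.05 by limma, without a fold threshold, 1 Hoxa, 3 Hoxc and 1 Hoxd genes differed, against 9998 of all 18193 genes. Hoxb6 had 7.23, 7.08 and 7.26 in GSC, against 3.19, 3.22 and 3.43 in ESC. Hoxb2 was 8.16 ± 0.10 in GSC and 5.05 ± 0.10 in ESC, and Hoxb4 was 8.03 ± 0.25 in GSC and 5.29 ± 0.18 in ESC. Hoxb13, at the end of the cluster, rose by 2.82, and Hoxb7 was not called at 0.01, dim on all 6 arrays. The MEF means of Hoxb6, Hoxb2, Hoxb4 and Hoxb13 were 5.63, 7.56, 6.17 and 4.10, under those of GSC. Hoxc8, the rise outside Hoxb, had 4.37 ± 0.40 in GSC and 3.22 ± 0.076 in ESC and a MEF mean of 8.67, and was not called without GSC array 3, at 0.94.

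**Figure D4:**
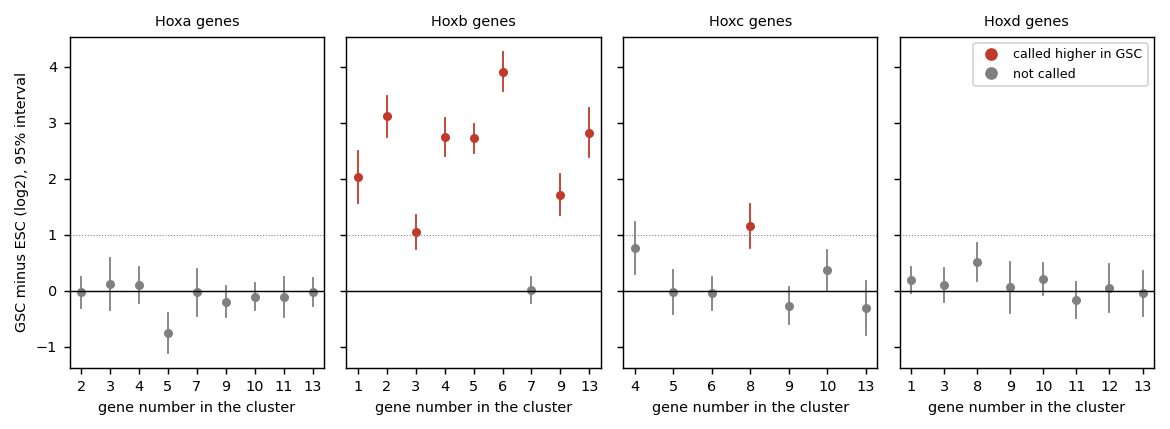
GSC minus ESC differences (log2, with 95% intervals) of the Hox genes of each cluster, by gene number, with a dotted line at 2-fold. In Hoxb every gene but Hoxb7 lies above 1, up to 3.91 for Hoxb6, and outside Hoxb only Hoxc8, at 1.15, was called.

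Genes of other lineages changed gene by gene. Zic1, a zinc finger factor of the nervous system, had 9.87, 10.04 and 9.85 in GSC, against 3.16, 3.15 and 3.47 in ESC, with a MEF mean of 7.85. Sox3, a relative of Sox2 that spermatogonia also express, had 9.31, 9.63 and 9.55 in GSC, against 5.36, 5.53 and 5.54 in ESC. Tubb3 and Gbx2 fell by 2.72 and 2.19, so that 3 of 28 neural genes rose and 4 fell. Of 23 endoderm genes 6 rose, with Afp at 4.42 and Foxa2 at 1.56, and 2 fell, with Apoe at -3.07. Trophoblast genes fell in 6 of 20 cases, or 3 with the MEF-enriched genes left out, among them Tfap2c, which primordial germ cells also use, at 5.85 ± 0.25 in GSC and 10.14 ± 0.029 in ESC. Of 21 mesoderm genes 0 rose and 0 fell, and of 6 Gata factors 0 and 0. At an unadjusted p under 0.05 by limma, 5 of the mesoderm genes and 0 of the Gata factors differed, against 9998 of all 18193 genes. Of the mesoderm genes 18, and of the Gata factors 5, were dim in both groups.

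Klf factors fell more often than they rose, 7 of 16 down and 2 up. Klf15 had 4.64, 4.50 and 4.87 in GSC, against 8.94, 8.79 and 8.45 in ESC. Klf12, Klf6 and Klf9 fell by 3.57, 3.32 and 3.10, and Klf7 and Klf11 rose by 2.64 and 2.62. Immediate early genes rose in 11 of 27 cases and fell in 5, with Fosl2 at 2.04 and Ier2 at -2.62, and 7 of the rises had a MEF mean at or above that of GSC. The microRNA pathway held 7 rises and 2 falls among 23 genes. Tut4, which tags let-7 precursors for decay, rose by 1.20, and Ago2 had 6.80, 6.31 and 6.06 in GSC, against 9.21, 9.27 and 9.22 in ESC. With the mean of the probe sets 2 genes of this pathway rose, and with quantile normalization or median centring 4 fell.

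Imprinted genes followed neither parental class. Paternally expressed genes rose in 5 of 23 cases and fell in 5, and maternally expressed genes rose in 4 of 24 and fell in 5. Igf2, the fetal growth factor, had 9.70, 9.72 and 9.59 in GSC, against 7.08, 7.04 and 7.25 in ESC, with a MEF mean of 12.28. Dlk1 had 7.26 ± 0.49 in GSC and 5.10 ± 0.10 in ESC and a MEF mean of 8.98, and was not called at 0.29 without sets of shared suffix. Impact, a regulator of translation, had 7.68, 8.06 and 7.71 in GSC, against 11.35, 11.26 and 11.44 in ESC. Peg3 and Meg3 were not called at -0.65 ± 0.15 and -0.79 ± 0.34 (SE), although Meg3 was called at -1.19 with those probe sets left out. Rian, from the same cluster as Meg3, fell by 2.84, and Phlda2 by 2.06.

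Genes of the sex chromosomes differed in both directions. Xist, the RNA that coats an inactive X chromosome, had 6.23, 5.66 and 6.00 in GSC, against 8.37, 8.75 and 8.55 in ESC, but was not called at -0.58 in the mean of its probe sets and lay at 0.55 without sets of shared suffix. On the Y chromosome Uba1y, Usp9y and Zfy2 rose by 4.58, 4.32 and 2.82, Uty fell by 1.06 (not called without GSC array 3, at -0.93, or in the mean of its probe sets, at -0.72), and Eif2s3y was not called at -1.11 ± 0.56 (SE, adjusted p by limma 0.112) but was called with the 6 arrays alone. Uba1y had 12.05, 12.10 and 12.16 in GSC, against 7.65, 7.63 and 7.29 in ESC. Eif2s3y and Uty had means of 8.97 and 6.54 in GSC and of 10.08 and 7.59 in ESC. On the X chromosome 18.0% of genes fell and 14.3% rose. The median difference of its genes over 6 in either group was -0.31.

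Chromosome 8 had the largest share of falls among the autosomes. On it 15.8% of its 932 genes fell and 9.66% rose, and the median difference of genes over 6 in either group was -0.20. On chromosome 5 it was 7.4% down and 16.0% up, with a median of 0.25. Over the chromosomes other than 8, X and Y, the medians ran from -0.04 to 0.25. No test was made of this description.

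**Figure D5:**
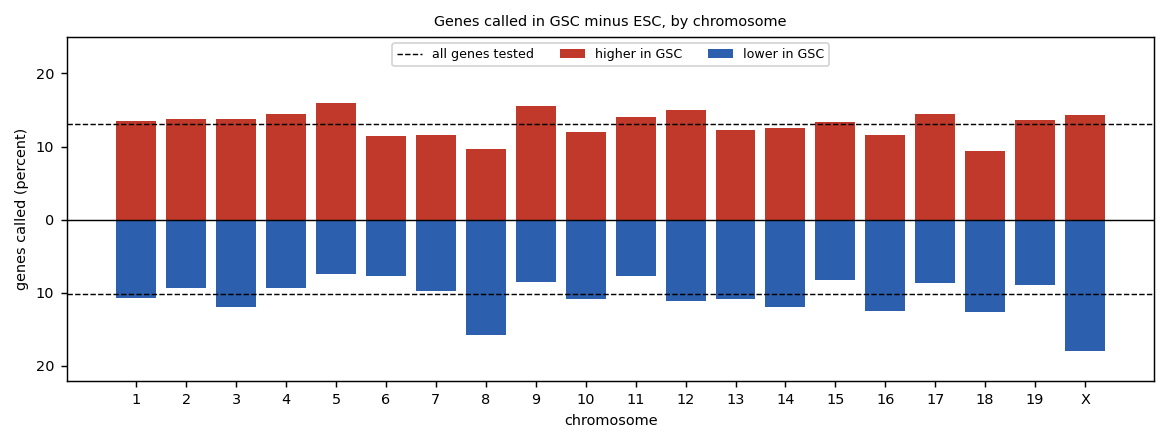
Share of the genes of each chromosome, in percent, that were called higher (above 0) or lower (below 0) in GSC than in ESC, with the shares over all genes as dashed lines. Chromosome 8 and the X chromosome have the largest shares of lower genes, 15.8% and 18.0%, against 10.2% over all genes.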

How the data were processed

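Expression was measured on Affymetrix mouse arrays hybridised with RNA from 20 samples in 6 groups, extracted with RNeasy kits and labelled by the One-Cycle procedure per the labels. The deposited values are log2 intensities that the authors summarised with RMA in Bioconductor, per the labels; its version, and whether all arrays were processed together, are not given in the sources used here. The table held 45101 probe sets. After 64 control sets were left out, 34945 had 1 gene symbol, 932 had several and 9160 had none, and 34741 symbols were updated through gene identifiers. Where a gene had several probe sets (9010 genes), the set with the highest mean over the 20 arrays was used. Array number limits the precision, and no read depth applies.

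Group means of all 20 arrays were fitted by lmFit and eBayes of limma 3.58.1, run in R 4.3.3, and the contrast was GSC minus ESC, with Benjamini-Hochberg adjustment over 18193 genes. Tables and plots used Python 3.11.15 with pandas 2.3.3, numpy 2.4.6 and matplotlib 3.10.9. The fit was tested on simulated data for this comparison over 18193 genes: differences of 1, 1.5, 2 and 3 (log2) were called at 50%, 100%, 96% and 100% of 50 genes each, with 2 false calls. A difference of 1 lies on the fold threshold itself. The simulated noise was normal and independent between arrays, and no other gene was changed. It therefore does not give the number of false calls in the real data. Alternatives changed the arrays in the fit, the variance model, the scaling, the choice of probe set, the filters and thresholds, and left out each array in turn.

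The gene lists, the key genes and the promoter motif were chosen with earlier results of these data known. Genes were named by a rule: from each list at most 6 called higher and 6 called lower with the largest differences and at most 4 not called with the smallest, a set of 43 key genes, and the 15 largest rises and falls without overlap. Named outside it, after their values were seen, were Acrv1, Asz1, Csf1r, Dnd1, Egfr, Gapdhs, Gldc, Hk2, Hoxc8, Ifit1, Ifit3, Irf1, Lifr, Magea5, Mcm7, Nlrc5, Nxf3, Pdha1, Pdha2, Pgk2, Piwil4, Ptprc, Rhox13, Spo11, Stag3, Tap1, Tex14, Tkt, Tnp1, Tssk1 and Tyrobp. Identity of probes between related genes was not examined.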

Additional observations from a re-analysis of the deposited data

How the results depend on the processing

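The count of called genes, 4241 (2392 higher and 1849 lower in GSC), stayed within 1.5 times its size when other arrays left the fit, with a variance trend, array weights, quantile normalization, median centring, both probe set alternatives, dim genes or MEF-enriched genes left out, and an adjusted p threshold of 0.01. The lowest of these was 3357, with the probe sets of each gene averaged. Counts moved with probe sets in place of genes (7426 called, 3840 higher and 3586 lower), with no fold threshold (9143, 5019 and 4124) and with a 4-fold threshold (1390, 720 and 670). When each array was left out in turn, the called genes ran from 4151 to 4332, the higher ones from 2255 to 2493 and the lower ones from 1803 to 1911. Median centring gave 2156 higher and 2016 lower genes and moved the median of all genes to -0.08.

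GSC and ESC arrays share only replicate numbers. Deviations of same-numbered arrays correlated at 0.08, -0.10 and 0.16, and not every array correlated best with its own number. With the number as a replicate block 4240 genes were called, 2391 higher and 1849 lower.

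Of 312 named genes, 293 kept their call, or their lack of one, under all 15 settings that could be run for them. Another 19 gained or lost a call or turned under at least 1, with 31 losses and 9 gains in all. A change of sign was counted only for genes called with or without the setting. Genes called in neither may have changed sign. Xist reversed, to 0.55, without sets of shared suffix. Counts over gene lists under each setting were added after seeing the data. With MEF-enriched genes left out, 3 of the paternally expressed and 2 of the maternally expressed imprinted genes rose, 3 maternally expressed genes fell, and 3 immediate early genes fell. With the mean of probe sets 5 neural genes rose and 2 fell, and 1 PRC1 gene fell. Under quantile normalization 4 PRC1 genes fell. Without sets of shared suffix, 5 partner copies, 1 PRC2 gene and 3 proteasome genes fell. The causes were not tested.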
